A study of Mus musculus with 2 samples.

Results

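The cells described here were *Fgf8*-positive epiblast cells of mouse embryos at embryonic day 7 (E7) that held little or no RNA of *T* or *Mixl1*. They were 230 of the 3726 cell barcodes in a pair of single-cell RNA-seq libraries, 90 of 1829 barcodes of the control library and 140 of 1897 barcodes of the *Yap1* cKO library. The study compared embryos in which *Yap1*, the transcriptional co-activator regulated by the Hippo pathway, was deleted in the epiblast with littermate controls. The *Yap1* cKO embryos carried Sox2cre and a pair of floxed alleles (Sox2cre:Yapflox/flox, labelled cYAPKO). The control sample is labelled WT, whereas the series design gives it as Sox2cre:Yapflox/+. The study's account of the sequencing likewise has littermates heterozygous for the floxed allele and carrying Cre, although its breeding paragraph describes control embryos as negative for Cre. The Sox2-Cre driver spares most extraembryonic cells and acts in epiblast cells and those that descend from them. The control library was made from 4 pooled embryos and the *Yap1* cKO library from 3, without treatment. As each genotype had 1 library, no difference between genotypes has a replicate check and none was tested.

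Cells were selected on unique molecular identifiers (UMIs, counted RNA molecules) in barcodes with at least 5000 detected genes and at most 10% mitochondrial UMIs. The epiblast gate took at least 2 UMIs of *Pou5f1* and at least 5 of *Pou3f1*, *Slc7a3* and *Utf1* together, and low limits on genes of mesoderm, node, extraembryonic ectoderm and visceral endoderm and on *Igfbp3*. Members held at most 1 UMI of *T* and *Mixl1* together and at least 3 UMIs of *Fgf8*. Cells that met the same limits with fewer *Fgf8* UMIs were called Fgf8-low (161 control and 87 *Yap1* cKO cells), and epiblast-gate cells with at least 2 UMIs of *T* and *Mixl1* were called T or Mixl1 cells (25 and 53). Levels are given as CPM, the UMIs of a gene per 1000000 UMIs summed over a group of cells. Their 95% intervals, and those of ratios and shares, are exact (Poisson, conditional binomial and Clopper-Pearson) and cover counting error only, and not the variation between embryos.

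Around gastrulation the posterior epiblast is exposed to NODAL, WNT3 and BMP signals, and cells there begin to form the primitive streak. FGF8 is a secreted ligand of the streak and the epiblast beside it, and cells of the streak switch on the transcription factors *T*, *Mixl1* and *Eomes*. YAP1 binds TEAD factors at DNA, and genes of its own inhibitory feedback, such as *Amotl2* and *Ajuba*, are among its known targets.

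The promoters of 3 genes are printed to show the TEAD-binding letters at YAP1 target genes whose levels are given further on. Each is the strand of transcription, 5′ to 3′, from 250 bases before to 50 bases after the RefSeq start (GRCm38.p6), with the motif GGAATG or its reverse complement CATTCC in capitals. *Amotl2*, an angiomotin that holds YAP1 in the cytoplasm, lies at chr9:102717554-102717853 (+ strand) with the motif at position -65 from the start. *Ajuba*, a LIM protein that restrains the LATS kinases, lies at chr14:54577612-54577911 (- strand) with the motif at -186 and -164. *Ccn1*, a matricellular protein gene that is a much used YAP1 target, lies at chr3:145649936-145650235 (- strand) with the motif at -103.
Amotl2: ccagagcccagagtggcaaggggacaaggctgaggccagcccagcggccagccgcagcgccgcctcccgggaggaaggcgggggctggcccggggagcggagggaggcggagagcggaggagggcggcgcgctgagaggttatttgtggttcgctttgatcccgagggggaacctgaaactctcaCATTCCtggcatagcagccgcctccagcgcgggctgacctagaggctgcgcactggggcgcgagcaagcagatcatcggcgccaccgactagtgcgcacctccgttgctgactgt
Ajuba: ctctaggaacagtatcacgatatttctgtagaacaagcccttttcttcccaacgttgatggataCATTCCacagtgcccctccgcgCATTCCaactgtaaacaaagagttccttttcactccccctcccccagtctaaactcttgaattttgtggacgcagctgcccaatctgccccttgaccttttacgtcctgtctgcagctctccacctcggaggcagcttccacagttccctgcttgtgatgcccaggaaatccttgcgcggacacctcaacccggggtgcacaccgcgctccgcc
Ccn1: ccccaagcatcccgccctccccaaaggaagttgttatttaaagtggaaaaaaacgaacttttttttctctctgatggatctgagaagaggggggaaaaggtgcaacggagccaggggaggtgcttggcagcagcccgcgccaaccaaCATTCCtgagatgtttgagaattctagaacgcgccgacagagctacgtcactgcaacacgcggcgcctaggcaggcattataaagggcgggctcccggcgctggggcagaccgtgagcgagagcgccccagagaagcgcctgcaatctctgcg

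The members had the depth to be compared cell by cell, but the *Yap1* cKO cells were deeper. Control members held between 26717 and 276246 UMIs (median 79320) and *Yap1* cKO members between 18310 and 295347 (median 95772), with medians of 8200 and 8505 detected genes. Mitochondrial UMIs were a median 0.751% and 0.743%. The 2 libraries shared 2 barcodes, none of them among the members, and no member was called a doublet by scrublet, which marked 1 control and 4 *Yap1* cKO cells of all those past the gene and mitochondrial limits. The labels give the samples as female, whereas both libraries held cells with Y-linked UMIs. Of the members, 47 control (52.2%) and 38 *Yap1* cKO cells (27.1%) were Y-bearing, with at least 2 Y-linked UMIs and no *Xist* UMI. In turn, 39 and 96 were *Xist*-bearing, with at least 2 *Xist* UMIs and no Y-linked UMI. In the *Yap1* cKO library 7 of 87 Fgf8-low cells (8.05%) were Y-bearing, against 54.7% in the control. Embryos of a pool cannot be told apart beyond this, so genotype ratios within Y-bearing and within *Xist*-bearing cells are given for the main genes beside the pooled ones.

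The label epiblast was checked on 3 chosen genes that the rule did not use, and all 3 were high next to extraembryonic ectoderm. *Dnmt3b*, the epiblast's de novo DNA methyltransferase, was at 1208 CPM in control and 1113 in *Yap1* cKO members, against 385 and 312 CPM in cells of the extraembryonic ectoderm gate. *Otx2*, an epiblast transcription factor, was at 148 and 130 CPM, against 0.178 and 0.168 CPM there. *Fgf5*, a ligand of the post-implantation epiblast, was at 163 and 132 CPM, against 0.119 and 0.0842 CPM. Other genes did not set the members apart in this way. The 18 pluripotency genes summed to 1503 and 1320 CPM in members, against 1306 and 1168 CPM in cells of the extraembryonic ectoderm gate. *Eomes* was higher in that gate, at 182 and 170 CPM, than in members (88.8 and 79.5 CPM). *T* and *Mixl1* together had no UMI at all in 79 of 90 control and 121 of 140 *Yap1* cKO members. Whether the members would later have formed streak was not measured.

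Markers of other cell types were summed in both libraries. The 10 extraembryonic ectoderm markers summed to 11.6 CPM in control and 12.7 in *Yap1* cKO members, against 2961 and 3316 CPM in that gate. *Ascl2* was the most abundant of them in the *Yap1* cKO, and *Rhox6* and *Rhox9* were at 0 in both. The 14 visceral endoderm markers summed to 160 and 121 CPM, of which *Apoe*, also used by other tissues, made 91.9 and 67.6 CPM. *Hnf4a* was at 0 in the control and *Cdh16* in the *Yap1* cKO. The 12 blood and endothelial markers summed to 20.8 and 19.4 CPM, led by *Etv2*, with *Hba-x*, *Hbb-bh1*, *Hbb-y*, *Kdr* and *Cdh5* at 0 in both. The 13 mesoderm markers summed to 24.7 and 31.5 CPM, led by *Myl7*, with *Msgn1* and *Gata5* at 0 in both and *Hand2* in the *Yap1* cKO alone. The 10 axial and endoderm markers summed to 221 and 235 CPM, more than in the extraembryonic ectoderm gate (157 and 171 CPM) and nearly all of it *Trh* (203 and 218 CPM), with *Shh* at 0 in both and *Pyy* in the control alone. The 7 germ cell markers summed to 30.3 and 36.4 CPM, led by *Ifitm3*, with *Prdm14* at 0 in the *Yap1* cKO.

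The *Fgf8*-positive cells made a larger share of the epiblast gate in the *Yap1* cKO library. They were 90 of 251 control cells (35.9%, 95% interval 29.9 to 42.1) and 140 of 227 *Yap1* cKO cells (61.7%, 55 to 68). Of all cells past the gene and mitochondrial limits they were 11.4% (9.25 to 13.8) and 16.2% (13.8 to 18.8). A fixed number of UMIs is reached more readily in a deeper cell, and members were deeper in the *Yap1* cKO. Cells were then thinned to 38000 UMIs before the gate was applied, and shallower cells were left out, which kept 765 of 791 control and 816 of 864 *Yap1* cKO cells past the limits. The shares were 55 of 222 (24.8%, 19.2 to 31) and 99 of 211 (46.9%, 40 to 53.9), so the *Yap1* cKO share was also the higher among cells of equal depth.

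The share differed in the same direction in cells with and without a Y chromosome. Among Y-bearing epiblast-gate cells it was 34.8% in control (47 of 135, 26.8 to 43.5) and 84.4% in *Yap1* cKO (38 of 45, 70.5 to 93.5). Among *Xist*-bearing cells it was 36.4% (39 of 107, 27.4 to 46.3) and 55.8% (96 of 172, 48.1 to 63.4). As deposited, the *Yap1* cKO intervals of the Y-bearing and *Xist*-bearing cells did not overlap. After thinning, the Y-bearing shares were 21.8% and 59.5% (42.1 to 75.2 for *Yap1* cKO) and the *Xist*-bearing shares 26.8% and 45.2% (37.5 to 53.1), whose intervals overlapped. A difference in the stage of the few pooled embryos and an effect of the genotype cannot be told apart.

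**Figure D1:**
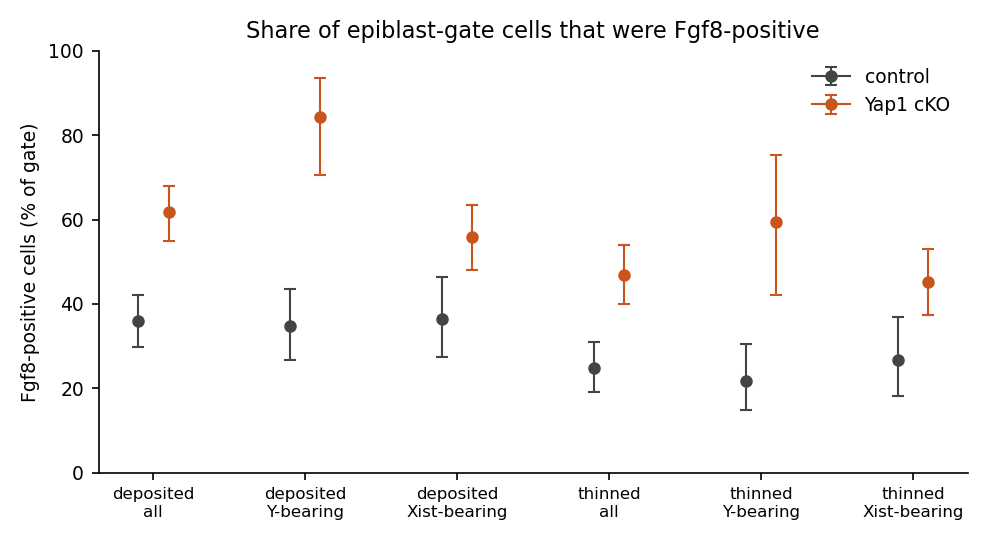
Share of epiblast-gate cells that were *Fgf8*-positive (y axis, percent) in control (grey) and *Yap1* cKO (orange), for all cells as deposited and after thinning, and for Y-bearing and *Xist*-bearing cells. Points are shares and bars exact 95% intervals, which cover counting error only; in every pair the *Yap1* cKO point is the higher, with 35.9% against 61.7% for all cells as deposited.

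The gene used for the choice, *Fgf8* (chr19:45736798-45742915, - strand, mm10), spread widely over the members. The median member held 7 *Fgf8* UMIs in control and 14 in *Yap1* cKO, and the highest 64 and 107. Over all epiblast-gate cells, 88 control cells (35.1%) and 34 *Yap1* cKO cells (15%) had no *Fgf8* UMI, and 10 (3.98%) and 30 (13.2%) had 40 or more. No gap separated members from other cells at the threshold. Just inside it, with 3 UMIs, lay 22 control and 11 *Yap1* cKO members (24.4% and 7.86% of members), at 37 and 35.4 *Fgf8* CPM. Just outside, with 2 UMIs, lay 24 and 23 cells at 21.1 and 23.7 CPM. These inside cells held 16 control and 12 *Yap1* cKO UMIs of *Nodal* and 4 and 13 of *Wnt3*, and the outside cells 10 and 21 of *Nodal* and 1 and 8 of *Wnt3*. The summed level of *Fgf8* was 171 and 216 CPM in members, 7.75 and 10.8 CPM in Fgf8-low cells and 435 and 516 CPM in T or Mixl1 cells.

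**Figure D2:**
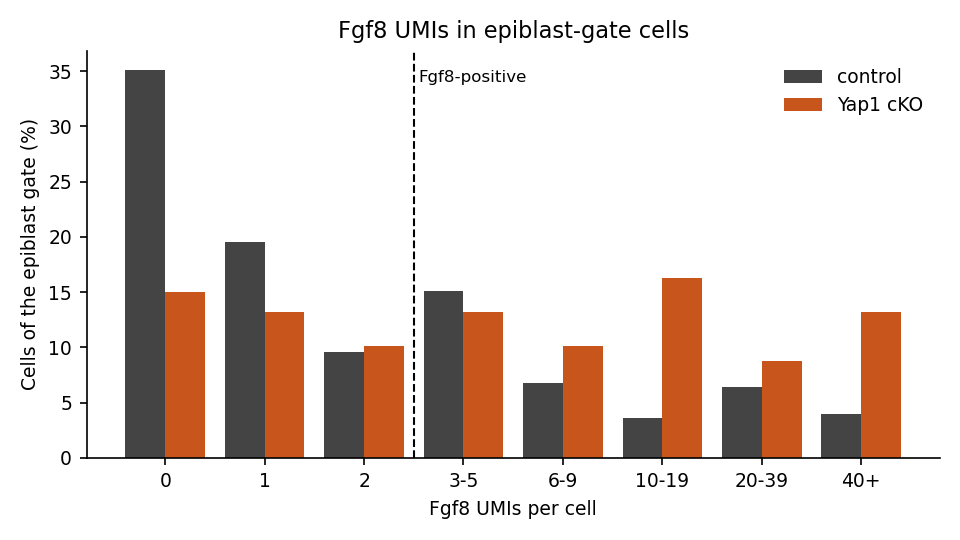
Percent of epiblast-gate cells (y axis) by the number of *Fgf8* UMIs in the cell (x axis), for 251 control and 227 *Yap1* cKO cells with at most 1 UMI of *T* and *Mixl1*. Cells with 3 or more UMIs are the members; 35.1% of control and 15% of *Yap1* cKO cells had none.

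The other genes of the rule are given for description. *Pou5f1*, the pluripotency factor OCT4, was at 87.9 CPM in control and 83.9 in *Yap1* cKO members. *Pou3f1* was at 326 and 299, *Utf1* at 531 and 497 and *Slc7a3* at 128 and 108 CPM. In cells of the extraembryonic ectoderm gate *Pou3f1* was at 489 and 421, *Utf1* at 497 and 499 and *Slc7a3* at 0.475 and 0.253 CPM. These values follow in part from the rule and were not compared.

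Next to Fgf8-low cells, the members held more RNA of the ligands and factors of the posterior epiblast. Since *Fgf8* chose the cells and both groups come from the same libraries, this is a description. With at least 100 UMIs per library over both gates, 9535 genes could be compared, of which 56 (0.587%) were at least 1.5 times as high and 26 (0.273%) at least 1.5 times lower in members in both libraries. The median log2 ratio of these genes was -0.01 in control and -0.06 in *Yap1* cKO. With at least 20 UMIs, as used for the gene lists, 1.38% of 12834 genes were higher and 1.29% lower.

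*Wnt3* (chr11:103774150-103817957, + strand), the Wnt ligand needed for streak formation, led these genes. Its level was 1.12 CPM in Fgf8-low and 15.4 in *Fgf8*-positive control cells (13.8 times, 7.9 to 25.9), and 2.13 and 15.4 CPM in *Yap1* cKO cells (7.21 times, 4.28 to 13.1). *Nodal* (chr10:61417972-61425338, + strand), the TGFβ-family ligand that patterns the epiblast, was at 4.4 and 27.9 CPM in control (6.35 times, 4.71 to 8.7) and at 8.53 and 35.7 CPM in *Yap1* cKO (4.18 times, 3.2 to 5.56). Neither ligand was a threshold of the rule, although both were named among the markers of these cells. *Eomes*, the T-box factor of mesoderm and endoderm, was 4.16 and 4.05 times as high, and the NODAL co-receptor gene *Tdgf1* 3.27 and 3.52 times. *Fst*, which encodes the activin antagonist follistatin, was 5.17 times as high in control and 2.75 times in *Yap1* cKO.

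The same genes continued upward in T or Mixl1 cells. *Wnt3* reached 43.3 and 48.8 CPM there, *Nodal* 49.4 and 54.3, and *Eomes* 380 and 268. *Fst* reached 553 CPM in control and 293 in *Yap1* cKO, and *Tdgf1* 329 and 217. The epiblast genes *Otx2* and *Sox2* ran the other way over the 3 gates, though not all epiblast genes did. *Otx2* was at 185, 148 and 88.8 CPM in control and 174, 130 and 91.9 in *Yap1* cKO. *Sox2*, the pluripotency and neural factor, was at 120, 98.2 and 41.7 CPM in control and 130, 93.2 and 49.9 in *Yap1* cKO. The members therefore lay between the other gates for each of these genes in both libraries.

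**Figure D3:**
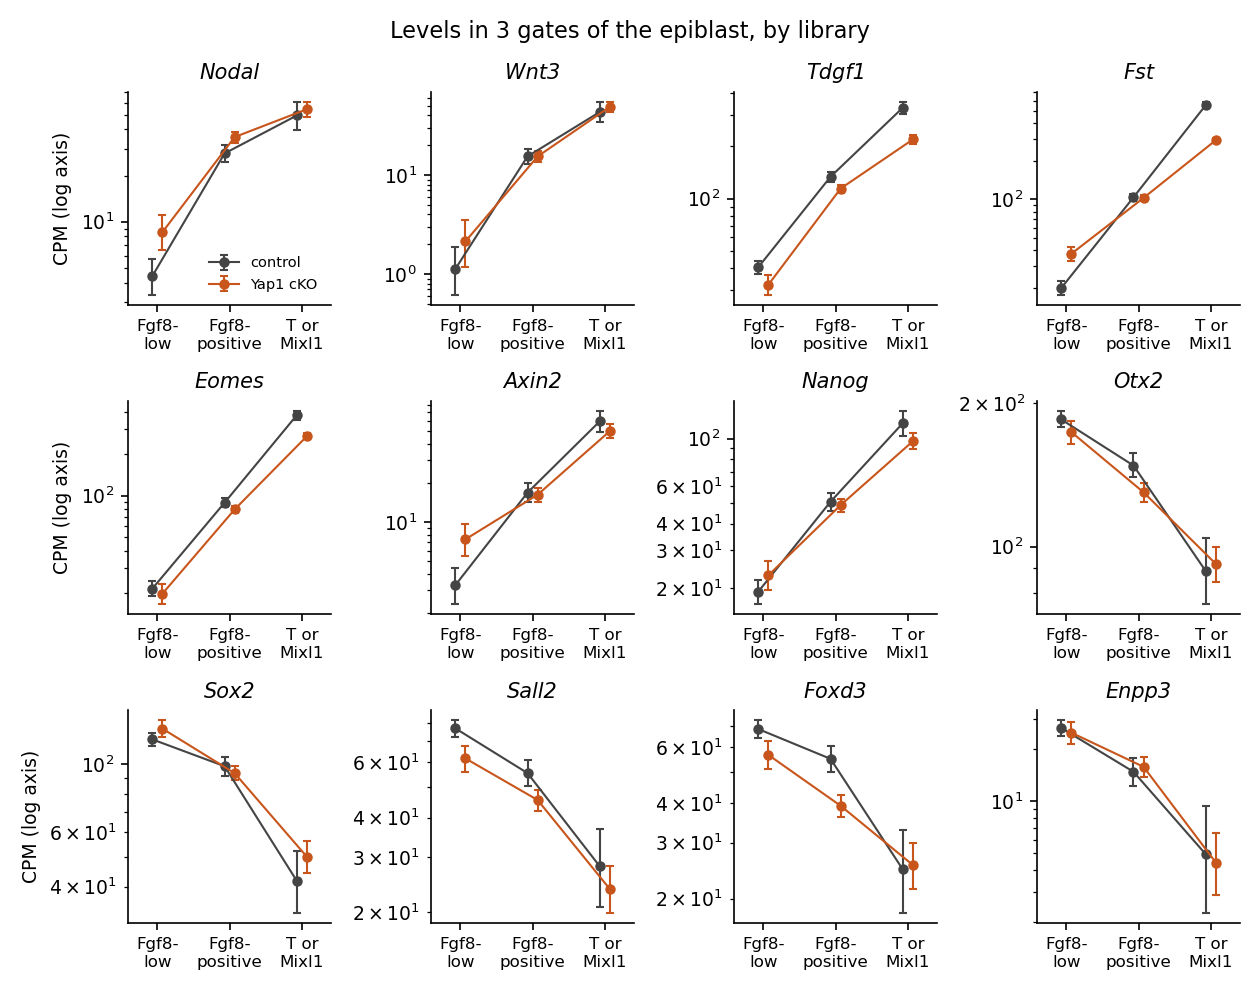
Level (CPM, log axis) of 12 genes in Fgf8-low, *Fgf8*-positive and T or Mixl1 cells of the epiblast gate, control in grey and *Yap1* cKO in orange. Bars are exact Poisson 95% intervals; *Nodal* and *Wnt3* step upward and *Otx2* and *Sox2* downward from left to right in both libraries, with *Wnt3* at 1.12, 15.4 and 43.3 CPM in control.

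The share of cells with a UMI showed the same order at equal depth. After thinning to 38000 UMIs, *Nodal* was found in 59.6% of 89 control and 62.2% of 135 *Yap1* cKO members, in 16.5% and 25.3% of Fgf8-low cells and in 95.8% and 83% of T or Mixl1 cells. In extraembryonic ectoderm cells, which should lack *Nodal* RNA, it was 1.76% and 2.2%. *Wnt3* was found in 31.5% and 37.8% of members, 5.06% and 6.02% of Fgf8-low cells and 75% and 75.5% of T or Mixl1 cells, against 0 of 170 and 1.1% in extraembryonic ectoderm cells. At 3 counts, the 0 of 170 allows a share of cells with a UMI of up to 1.76%. Without thinning, *Nodal* had a UMI in 74.4% and 86.4% of members and *Wnt3* in 44.4% and 59.3%, and the median depth of the extraembryonic ectoderm cells was 85015 and 103800 UMIs.

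Other genes with the largest ratios in both libraries had varied roles. *Tgfbr3*, a TGFβ co-receptor, was 3.25 times as high in control and 3.37 times in *Yap1* cKO members as in Fgf8-low cells. *Rreb1*, a zinc-finger factor acting downstream of RAS, was 2.85 and 3.37 times as high, and *Vangl1*, a planar cell polarity gene, 2.96 and 2.75 times. *Nefl*, a neurofilament gene, was 2.89 and 2.72 times as high and *Grrp1* 5.34 and 2.74 times. At the other end stood *Nxph1*, a neurexophilin (0.362 and 0.477), and *Hmgcs1*, an enzyme of cholesterol synthesis (0.506 and 0.606). The tight junction gene *Ocln* was at 0.598 and 0.6 times its Fgf8-low level, and the potassium channel gene *Kcnh8* at 0.437 and 0.554 times. *Slc35d3*, *Mindy2*, *Prrg4*, *Olfr655*, *Arhgef16* and *Galntl6* made up the 10 lowest, with ratios between 0.423 and 0.62.

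Gene lists placed these genes in pathways. Of 9 streak factors that could be compared, 8 were at least 1.5 times as high in members in both libraries: *Eomes*, *Gsc*, *Foxa2*, *Sp5*, *Snai1*, *Nkx1-2*, *Rspo3* and *Evx1os*. Some rested on few control members. *Foxa2* had 37 UMIs in 9 cells (35.1% in 1 cell) and *Sp5* 26 in 9 cells (30.8% in 1 cell). *Nkx1-2* had 17 in 11 cells and *Evx1os* 27 in 14, whereas *Eomes* was found in 76 cells. *Gsc*, the homeobox gene of the anterior streak, stood at 1.76 CPM in Fgf8-low and 6.39 in *Fgf8*-positive control cells, and at 0.853 and 8.05 CPM in *Yap1* cKO. Of 9 NODAL ligands, co-factors and inhibitors 5 were higher in both libraries (*Nodal*, *Tdgf1*, *Cfc1*, *Lefty1* and *Fst*). Among 13 NODAL receptors, SMADs and related genes, 1 was higher. Of 17 Wnt ligands and receptors 5 were higher (*Wnt3*, *Wnt8a*, *Wnt2b*, *Rspo3* and *Porcn*). Of 12 Wnt response genes 4 were higher, led by *Axin2*, a direct target of the pathway (5.16 and 2.21 times), and 1, *Nkd2*, was lower. Of 17 genes of the anterior epiblast and neural plate 3 were lower (*Sox3*, *Hesx1* and *Enpp3*) and 1 was higher. None of 15 core Hippo genes, 8 feedback genes and 17 YAP1 targets was past 1.5 times in both libraries.

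Genes past that fold were counted in the same way for signals beside NODAL and Wnt. *Fgf17*, a relative of *Fgf8*, was the only one of 7 FGF ligands and receptors, at 2.69 and 3.79 times its Fgf8-low level. *Il17rd*, a feedback inhibitor of FGF signalling, was the only one of 17 ERK response genes (1.51 and 1.56 times). Of 13 BMP genes 3 were higher, among them *Msx1*, a homeobox target (2.28 and 2.85 times). *Nanog*, the pluripotency factor that is also found in the posterior epiblast, was 2.64 and 2.13 times as high, one of 2 of 15 pluripotency genes beside *Tdgf1*. *Snai1*, a repressor of *Cdh1*, was the only one of 21 EMT genes above 1.5 times, and *Ocln* the only one below. None of 11 Notch, 15 glycolysis, 10 DNA methylation, 42 S-phase and 52 G2/M genes was past 1.5 times in either direction in both libraries.

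The targeted gene came first between genotypes. *Yap1* (chr9:7931999-8004596, - strand) was at 27.9 CPM in control members (24.4 to 31.9) and 1.06 CPM in *Yap1* cKO members (0.609 to 1.73), 0.0381 times the control level (0.0214 to 0.0633). Its UMIs were found in 86.7% of control members and in 11 of 140 *Yap1* cKO members (7.86%). In extraembryonic ectoderm cells *Yap1* was at 24.7 CPM in control and 18.9 in *Yap1* cKO (0.763 times, 0.646 to 0.9). *Wwtr1*, which encodes the paralogue TAZ, was at 16 and 11.8 CPM, 0.739 times, and 1.13 times with cells thinned before the gate was applied.

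Over all genes with at least 100 UMIs in members (9889), 108 (1.09%) were at least 1.5 times as high in *Yap1* cKO and 240 (2.43%) at least 1.5 times lower, with a median log2 ratio of -0.06. With at least 20 UMIs (13288 genes), as used for the lists, the shares were 4.25% and 6.44%. The median list ratios below can be read against that log2 median of -0.06.

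Genes of the Hippo feedback and YAP1 targets were lower in *Yap1* cKO members. Of 8 feedback genes 5 were at least 1.5 times lower and none higher, with a median log2 ratio of -0.74. *Amotl2* was at 19.9 CPM in control and 6.19 in *Yap1* cKO (0.311 times, 0.238 to 0.404) and *Ajuba* at 34.1 and 15.4 CPM (0.453 times, 0.379 to 0.542). *Ptpn14*, a phosphatase that binds YAP1, was at 25.2 and 11.9 CPM (0.473 times), and *Wwc2*, a KIBRA relative, at 41.7 and 22.6 CPM (0.542 times). *Frmd6* was at 6.89 and 4.53 CPM (0.657 times). Both Y-bearing and *Xist*-bearing cells were below 1 for each of these 5 genes.

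Of 18 YAP1 targets 7 were lower and 1 higher, with a median log2 ratio of -0.40. *Ccn1* was at 6.76 and 0.932 CPM (0.138 times, 0.0707 to 0.251), *Ccn2*, its relative CTGF, at 8.77 and 3.39 CPM (0.387 times), and *Lats2*, the kinase that phosphorylates YAP1, at 8.89 and 3.99 CPM (0.449 times). *Nuak2*, a stress kinase, was at 6.14 and 2.6 CPM (0.423 times). *Arhgef17*, *Amotl2* and *Ptpn14* were the others, and *Axl*, a receptor tyrosine kinase, was the one above 1.5 times, at only 0.501 and 1.06 CPM (2.13 times, 0.686 to 8.74). Of 16 core Hippo genes, *Yap1* and *Lats2* were lower and none higher.

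In extraembryonic ectoderm cells of the same libraries the ratios of these genes lay nearer 1. *Amotl2* was at 39.5 CPM in control and 34.4 in *Yap1* cKO there (0.87 times, 0.767 to 0.985), *Ccn1* at 51.3 and 49.3 (0.962 times), *Ajuba* at 11.5 and 11.1 (0.965 times) and *Ptpn14* at 20 and 20.6 CPM (1.03 times), while *Ccn2* was at 7.13 and 5.39 CPM (0.756 times, 0.549 to 1.03). In Fgf8-low cells the ratios resembled those of members, 0.271 for *Amotl2*, 0.41 for *Ajuba*, 0.566 for *Ptpn14* and 0.175 for *Ccn1*, but *Ccn2* was at 0.794.

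The motif GGAATG, the only motif searched, on both strands, was found in 4481 of 27025 RefSeq promoter windows of 300 bases (16.6%). All 8 feedback genes had a window, and 4 held the motif (*Amotl2*, *Ajuba*, *Ptpn14* and *Wwc2*). All 4 were among the 5 lower genes, and the fifth, *Frmd6*, held none. Of 21 YAP1 targets 14 had a window and 7 held the motif, among them the 4 lower genes with a window (*Ccn1*, *Lats2*, *Amotl2* and *Ptpn14*). The other holders were *Ankrd1*, *Crim1* and *Axl*, the last being the target that was higher in *Yap1* cKO. A match is a match of letters and no evidence of binding.

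The NODAL pathway showed unequal differences among its members. *Nodal* was at 27.9 CPM in control members (24.4 to 31.9) and 35.7 in *Yap1* cKO (32.7 to 38.8), a ratio of 1.28 (1.09 to 1.5), and 1.27 and 1.16 in Y-bearing and *Xist*-bearing cells. *Lefty1*, a secreted NODAL inhibitor and direct target, was at 1.75 and 5.39 CPM (3.07 times, 1.73 to 5.87), from 14 and 81 UMIs. *Lefty2* was at 2.25 and 6.52 CPM (2.89 times, 1.74 to 5.08), from 18 and 98 UMIs. These ratios were larger in *Xist*-bearing cells (4.65 and 4.73) than in Y-bearing cells (1.34 and 1.19). With cells thinned before the gate was applied, the ratio was 1.23 for *Lefty1* and 5.74 for *Lefty2*. At equal depth *Lefty2* was found in 8.99% of control and 17% of *Yap1* cKO members, against 0 of 170 and 0 of 91 extraembryonic ectoderm cells.

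Neither *Tdgf1* nor *Fst* was past 1.5 times in members as a whole. *Tdgf1* was at 133 and 114 CPM (0.855 times, 0.791 to 0.924), with 0.481 for Y-bearing and 1.22 for *Xist*-bearing cells. *Fst* was at 104 and 103 CPM (0.991 times, 0.91 to 1.08). Of 10 NODAL ligands, co-factors and inhibitors 2 were at least 1.5 times as high in *Yap1* cKO, both *Lefty* genes, and none lower.

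*Wnt3* had the same level in members of both libraries, 15.4 CPM, with a ratio of 0.998 (0.798 to 1.25), and 1.06 for Y-bearing and 0.815 for *Xist*-bearing cells. *Wnt8a*, a further Wnt ligand of the streak, was at 7.77 and 3.33 CPM (0.428 times, 0.289 to 0.632), below 1 in both kinds of cell. Without the control cell that held 16.1% of its control UMIs the ratio was 0.505. At equal depth a *Wnt8a* UMI was found in 15.7% of control and 16.3% of *Yap1* cKO members. The Wnt receptor genes *Fzd7* (34.2 and 21.2 CPM, 0.621 times) and *Fzd3* (30.6 and 20.2 CPM, 0.66 times, but 0.871 times after thinning) were lower. *Axin2* was at 16.9 and 16.3 CPM (0.964 times, 0.778 to 1.2). *Dkk1*, a secreted Wnt antagonist, was at 1.38 and 3.13 CPM (2.27 times, 1.16 to 4.85), from 11 and 47 UMIs. Of 19 Wnt ligands and receptors 2 were higher and 4 lower, and of 14 response genes and antagonists 3 and 2.

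Streak factors were mixed. *Eomes* was at 88.8 and 79.5 CPM (0.895 times, 0.815 to 0.983) and *Gsc* at 6.39 and 8.05 CPM (1.26 times, 0.902 to 1.78). *Evx1*, a homeobox gene of the posterior streak, was at 1.5 and 3.59 CPM (2.39 times, 1.26 to 4.91), but 1 cell held 33.3% of its control UMIs, and the ratio without it was 3.55. It was 2.01 without the highest *Yap1* cKO cell, 1.42 with cells thinned before the gate was applied, and 9.6 for Y-bearing and 1.14 for *Xist*-bearing cells. *Snai1* was at 7.89 and 4.86 CPM (0.616 times, 0.433 to 0.877). Of 12 streak factors 2 were at least 1.5 times as high and 2 lower.

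**Figure D4:**
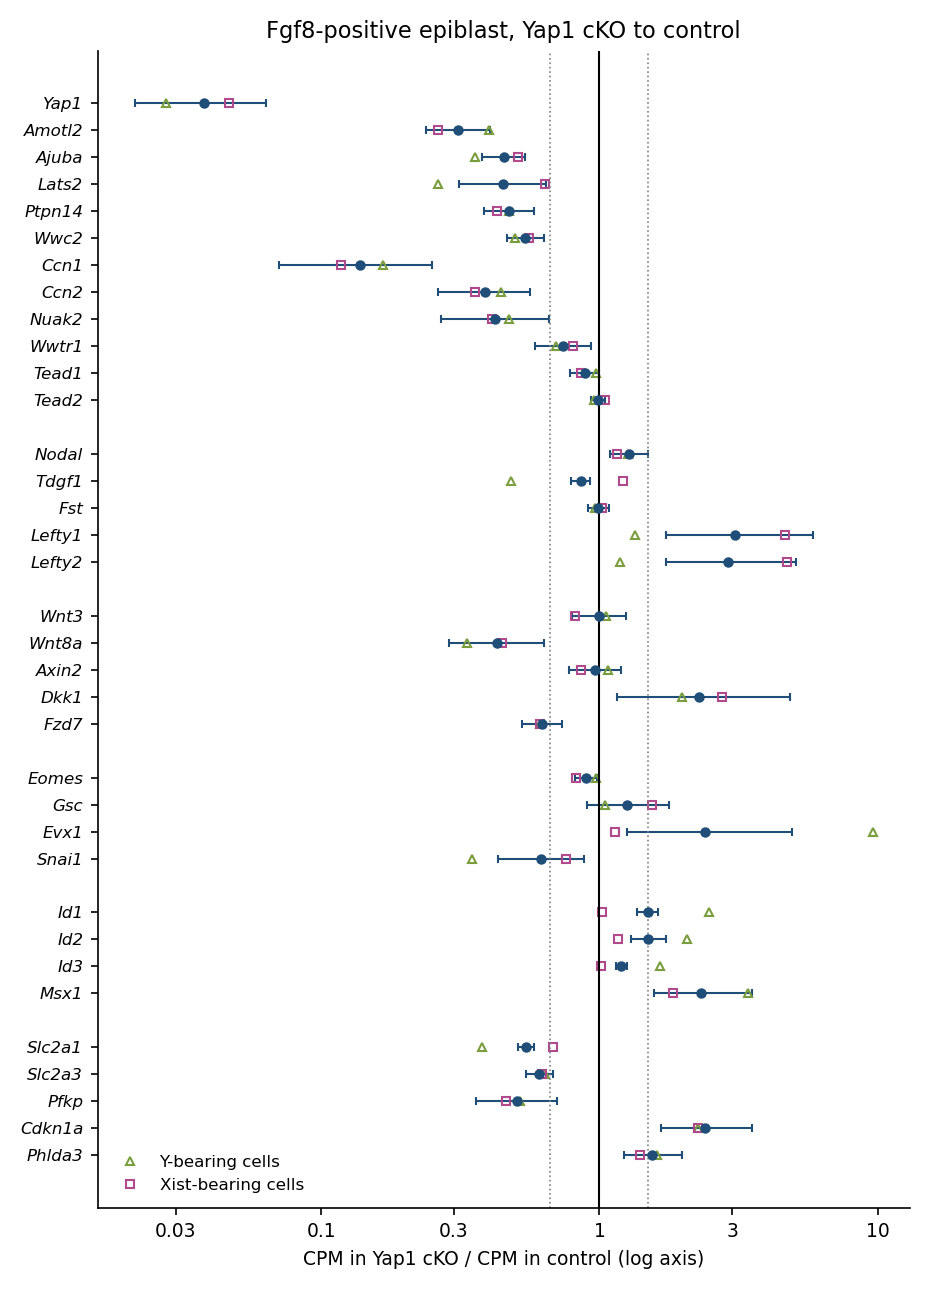
Ratio of CPM in *Yap1* cKO to control members (log axis) for genes grouped by role, from Hippo genes at the top to metabolic and p53 genes at the bottom. Filled points with exact 95% intervals are all members, triangles Y-bearing and squares *Xist*-bearing cells, and dotted lines mark 1.5 times in either direction; *Yap1* lies at 0.0381 and *Lefty1* at 3.07, while *Wnt3* and *Fst* lie near 1.

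Over the whole epiblast gate the same ligands differed more than they did within members. The libraries had unlike proportions of *Fgf8*-positive cells, so the ratio over the gate mixes this proportion with the level per class of cell. Over the gate *Nodal* was at 13.6 CPM in control and 27 in *Yap1* cKO (1.99 times, 1.72 to 2.3), and *Wnt3* at 6.69 and 11.2 CPM (1.67 times, 1.35 to 2.07). With both libraries weighted to the control's split, in which 39% of the gate's UMIs came from *Fgf8*-positive cells, the ratios were 1.41 and 1.09. *Fst* went from 1.56 to 1.19 and *Axin2* from 1.57 to 1.26 in the same way. *Eomes* went from 1.27 to 0.901 and *Tdgf1* from 1.14 to 0.835, across 1. In Fgf8-low cells the ratio was 1.94 for *Nodal* (1.32 to 2.85) and 1.9 for *Wnt3* (0.857 to 4.26), the latter from 14 and 15 UMIs.

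Members were also split by their *Fgf8* UMIs, a split made after the data were seen. With 3 to 5, 6 to 19 and 20 or more UMIs there were 38, 26 and 26 control cells and 30, 60 and 50 *Yap1* cKO cells. *Nodal* was at 11 and 14.2 CPM in the lowest class, 28 and 31.2 in the middle and 49.3 and 51.3 in the highest, with ratios of 1.29, 1.11 and 1.04. The interval of each ratio included 1, which does not show that the levels were alike, and in the cells with 0 to 2 UMIs the ratio was 1.94. In classes by *Fgf8* CPM, below 100, from 100 to below 300 and at 300 or more, the *Nodal* ratios were 1.25, 1.29 and 1.18.

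*Wnt3* did not follow this. With 3 to 5 *Fgf8* UMIs it was at 2.21 CPM in control (7 UMIs) and 9.94 in *Yap1* cKO (28 UMIs), 4.5 times (1.92 to 12.2), with 6 to 19 at 9.92 and 11.9 CPM (1.2 times, 0.743 to 2), and with 20 or more at 37.3 and 22 CPM (0.591 times, 0.448 to 0.781). *Eomes* and *Fst* had the same order at the top. *Eomes* was at 185 and 111 CPM with 20 or more UMIs (0.599 times, 0.531 to 0.677) and *Fst* at 211 and 116 CPM (0.549 times, 0.489 to 0.616). With 3 to 5 and 6 to 19 UMIs the *Eomes* ratios were 1.14 and 1.05, with intervals that included 1. Those of *Fst* were 1.43 (1.09 to 1.88) and 1.34 (1.14 to 1.57). *Zeb2*, a transcriptional repressor among the EMT genes, was at 44.5 and 26.2 CPM in the highest class (0.589 times, 0.458 to 0.76).

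*Cdkn1a* and *Lefty2* differed the other way in the cells with the most *Fgf8*. With 20 or more UMIs *Cdkn1a*, the cell cycle inhibitor p21, was at 4.01 and 15.9 CPM (3.97 times, 2.06 to 8.55). *Lefty2* had 1 control and 50 *Yap1* cKO UMIs there (21.8 times, 3.74 to 878). *Amotl2* and *Ajuba* were lower in *Yap1* cKO in every class, with ratios between 0.271 and 0.558. In the same classes by *Fgf8* CPM, *Wnt3* ratios were 2.01, 0.947 and 0.729, and *Eomes* ratios 1.5, 0.754 and 0.706.

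**Figure D5:**
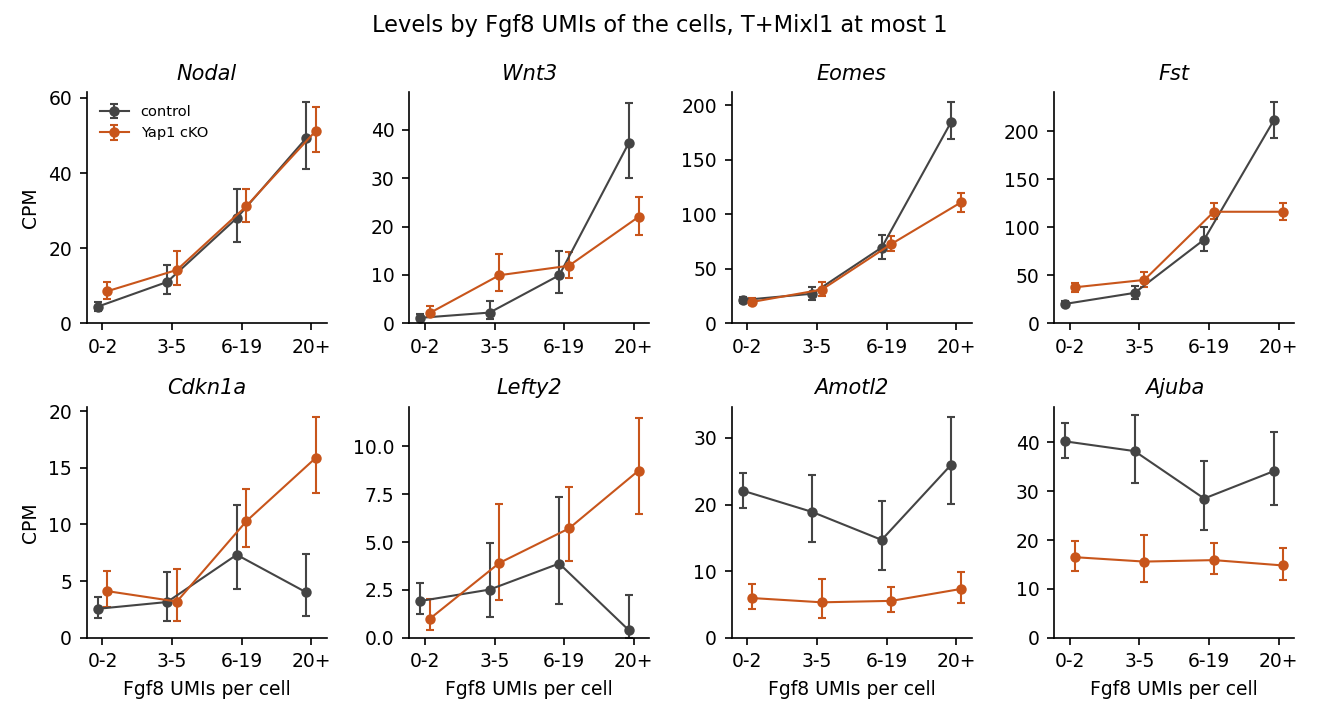
Level (CPM, linear axis from 0) of 8 genes in cells with 0 to 2, 3 to 5, 6 to 19 and 20 or more *Fgf8* UMIs, control in grey and *Yap1* cKO in orange, with exact Poisson 95% intervals. *Nodal* is higher in *Yap1* cKO at 0 to 2 UMIs (8.53 against 4.4 CPM) and has overlapping intervals in the other classes, *Wnt3*, *Eomes* and *Fst* part at 20 or more UMIs with the control higher, *Wnt3* also at 3 to 5 and *Fst* at 0 to 2 and 6 to 19 with *Yap1* cKO higher, *Cdkn1a* and *Lefty2* part there with *Yap1* cKO higher, and *Amotl2* and *Ajuba* are apart throughout.

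Some BMP response genes had ratios above 1 in *Yap1* cKO members as deposited, unequally between cells with and without a Y chromosome, while the median log2 ratio of the list was 0.04. *Id1*, an inhibitor of bHLH factors and a direct BMP target, was at 95.7 and 143 CPM (1.49 times, 1.37 to 1.62), with 2.47 for Y-bearing and 1.02 for *Xist*-bearing cells. By *Fgf8* UMIs its ratio was 3.07 in Fgf8-low cells, 2.63 at 3 to 5, 0.842 at 6 to 19 (0.744 to 0.955) and 1.72 at 20 or more. *Id2* was at 31.7 and 47.7 CPM (1.5 times), with 2.07 and 1.17, and *Id3* at 352 and 424 CPM (1.2 times), with 1.65 and 1.01. *Msx1* was at 4.01 and 9.32 CPM (2.32 times, 1.57 to 3.53), with 3.43 and 1.84. With cells thinned before the gate was applied, the ratios were 0.986 for *Id1*, 1.31 for *Id2* and 1.05 for *Msx1* in the 55 control and 99 *Yap1* cKO cells that then met it. Of 13 genes of the list 2 were at least 1.5 times as high and 1, *Smad5*, lower.

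FGF and ERK genes showed few differences of that size. None of 7 FGF ligands and receptors was past 1.5 times. Of 18 ERK response genes the phosphatase gene *Dusp5* was higher (1.69 times) and *Egr1*, *Ier3* and *Phlda1* lower. *Egr1*, an immediate early gene, was at 8.89 and 4.79 CPM (0.539 times, 0.383 to 0.759).

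Both glucose transporter genes measured in the list were lower in *Yap1* cKO members, and 2 p53 targets were higher. *Slc2a1*, the glucose transporter GLUT1, was at 216 and 118 CPM (0.546 times, 0.511 to 0.584), *Slc2a3*, GLUT3, at 74.5 and 45.4 CPM (0.609 times, 0.545 to 0.681) and *Pfkp*, a phosphofructokinase, at 9.65 and 4.86 CPM (0.504 times, 0.361 to 0.703). These were the 3 of 15 glycolysis genes past 1.5 times. *Slc2a1* was also lower in Fgf8-low cells (0.704 times). *Cdkn1a* was at 4.63 and 11.1 CPM (2.4 times, 1.67 to 3.52), with 2.26 in both Y-bearing and *Xist*-bearing cells, although 1 cell held 29.7% of its control UMIs (3.39 times without it). *Phlda3*, a p53-induced inhibitor of AKT, was at 11.9 and 18.5 CPM (1.55 times, 1.23 to 1.98). They were 2 of 16 genes of the p53 list, whose median log2 ratio was 0.01. None was at least 1.5 times lower, and *Mdm2*, *Pmaip1*, *Zmat3* and *Aen*, also p53 targets, had ratios of 0.898, 0.793, 0.936 and 0.996.

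Among epiblast and pluripotency genes few were past 1.5 times, though the pluripotency list had a median log2 ratio of -0.24 and the anterior epiblast list one of -0.13. *Sox2* was at 98.2 and 93.2 CPM (0.949 times, 0.869 to 1.04), *Nanog* at 50.6 and 48.8 CPM (0.964 times, 0.853 to 1.09) and *Otx2* at 148 and 130 CPM (0.878 times, 0.816 to 0.944). *Foxd3*, an epiblast forkhead factor, was at 55.1 and 39.2 CPM (0.711 times). Of 17 anterior epiblast and neural genes 1, *Lhx5*, was higher (1.59 times, and 1.3 without the highest *Yap1* cKO cell). Of 16 pluripotency genes *Tfap2c* was higher and *Zfp42* lower (0.633 times, but 1.11 after thinning). *Tfap2c*, also a trophoblast and germ cell factor, was at only 0.376 and 1.13 CPM (3.01 times, but 0.556 after thinning), against 162 and 139 CPM in extraembryonic ectoderm cells. Of 10 DNA methylation genes *Dnmt3l* was higher and *Tet2* lower, both from few UMIs. *Dnmt3l* had 6 UMIs in control, 50% of them in 1 cell, and 29 in *Yap1* cKO, and *Tet2* had 18 and 22. None of 42 S-phase and 52 G2/M genes was past 1.5 times, with median log2 ratios of -0.05 and 0.08. Of 11 Notch genes *Notch1* and *Lfng* were lower (0.664 and 0.602 times, but 0.873 and 0.778 after thinning), and of 21 EMT genes *Snai1* and *Itga5*.

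The genes with the most extreme genotype ratios, among those on the same side of 1 in Y-bearing and *Xist*-bearing cells, included few of these pathways. The 10 lowest were *Yap1*, *Ppm1k*, *Amotl2*, *Dnah2*, *Ntn1*, *Ccn2*, *Rpl10-ps3*, *Pcdh7*, *Pfkfb4* and *Bcam*. *Ppm1k*, a mitochondrial phosphatase of branched-chain amino acid breakdown, was at 9.02 and 2.53 CPM (0.28 times, 0.184 to 0.421), but 1.47 times as high in Fgf8-low cells. A single cell held 36.1% of its control UMIs, and without that cell the ratio was 0.433, while after thinning it was 0.132. *Ntn1*, the secreted cue netrin 1, was at 7.64 and 2.93 CPM (0.383 times, 0.595 after thinning), *Pcdh7*, a protocadherin, at 7.77 and 3.06 CPM (0.394 times) and *Pfkfb4*, a regulator of glycolysis, at 7.14 and 2.86 CPM (0.401 times, with 0.211 and 0.718 in Y-bearing and *Xist*-bearing cells, and 0.541 without the cell that held 26.3% of its control UMIs). In extraembryonic ectoderm cells the ratio was 0.379 for *Pfkfb4* (0.216 to 0.637) and 0.379 for *Rpl10-ps3*. In Fgf8-low cells it was 1.28 for *Pfkfb4* (0.744 to 2.19) and 0.343 for *Rpl10-ps3*, and in T or Mixl1 cells 2.5 for *Pfkfb4*. For *Dnah2* 1 cell held 50.8% of the control UMIs, and without it the ratio was 0.673 in place of 0.337. *Rpl10-ps3*, annotated as protein coding but named as a pseudogene of *Rpl10*, could share reads with that gene.

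The 10 highest included *2310039L15Rik*, *Gm32913*, *Gm17359*, *Gm36975*, *Gm15862*, *Lefty2*, *Olfr655*, *Spink1* and *Rsph10b*. *Spink1*, a trypsin inhibitor also seen in visceral endoderm, was at 3.51 and 9.38 CPM (2.68 times, 1.77 to 4.17) and was 2.06 times as high in Fgf8-low and 2.45 times in extraembryonic ectoderm cells. *Olfr655*, annotated as an olfactory receptor, was at 5.76 and 15.7 CPM (2.73 times, 4.38 after thinning) and 3.08 times as high in Fgf8-low cells. For 3 of the others 1 cell held much of a library's UMIs: 33.7% of the *Yap1* cKO UMIs of *2310039L15Rik* (6.11 times, 4.08 without it and 16.7 after thinning), 38.4% of those of *Gm36975* (3.29 times, 2.05 without it and 0.741 after thinning) and 54.8% of the control UMIs of *Gm15862* (2.93 times, 6.42 without it). The ratios in Y-bearing and *Xist*-bearing cells were 12.3 and 1.9 for *Gm32913* (4.55 times) and 8.96 and 1.14 for *Gm36975*. Free RNA in the droplets was not subtracted from any of these levels.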

How the data were processed

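Single-cell suspensions of pooled E7 embryos were sequenced by the authors on the 10x platform, and the deposited matrices hold whole UMI counts per gene and barcode (32285 genes), made per the labels with Cell Ranger 7.1.0 on mm10. The control matrix held 1829 barcodes and 70573418 UMIs, and that of *Yap1* cKO 1897 barcodes and 87937858 UMIs. The deposited counts were summed over the cells of a gate and given as CPM (Python 3.11.15, numpy 2.4.6, scipy 1.17.1, pandas 2.3.3). Doublets were scored with scrublet in scanpy 1.11.5. Thinning drew 38000 UMIs from each cell that held as many and left out the others (1 control and 5 *Yap1* cKO members). The gates, members and gene lists were chosen with earlier results of these data known, and the classes by *Fgf8* level and the ratios without the highest cell of a gene after the data were seen. Genes named beyond the lists were the 10 highest and 10 lowest ratios at a minimum of 100 UMIs, between libraries (same side of 1 in Y-bearing and *Xist*-bearing cells) and between *Fgf8*-positive and Fgf8-low cells (in both libraries). Gate genes, *Xist*, *Tsix* and Y-linked genes were left out of comparisons. Coordinates of genes come from GENCODE M21, in which 127 genes had no match. The ratios, their intervals and the thinning were checked on simulated counts. These held counting error only, so the check says nothing of variation between cells or embryos. Alternatives covered the limits on genes, mitochondrial UMIs, *Fgf8*, *T* and *Mixl1*, the UMI minimum, the fold, the scaling, doublets, thinning and Y-bearing or *Xist*-bearing cells. Some items are not reported here.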

Additional observations from a re-analysis of the deposited data

Results flagged for a closer look

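A few genes had ratios of *Yap1* cKO to control that lay on opposite sides of 1 in different cells, and none of these differences was tested. *Dnah2*, an axonemal dynein gene, was at 0.337 times the control level in *Fgf8*-positive cells and at 3.63 times in Fgf8-low cells, and 1 cell held 50.8% of its UMIs in control members. *Gm36975* was at 3.29 times in *Fgf8*-positive (0.741 times after thinning) and 0.56 times in Fgf8-low cells, and 1 cell held 38.4% of its UMIs in *Yap1* cKO members. *Lefty2* was at 2.89 times in *Fgf8*-positive cells and at 0.518 times in Fgf8-low cells, the latter from 24 control and 7 *Yap1* cKO UMIs with an interval of 0.189 to 1.24.

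Within the *Fgf8*-positive cells, *Grrp1* was at 1.51 times the control level in Y-bearing and 0.664 times in *Xist*-bearing cells. *Ocln* ran the other way, at 0.604 times in Y-bearing and 1.52 times in *Xist*-bearing cells. These differences between kinds of cell were not tested either.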

How the results depend on the processing

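With *Fgf8* at 2 or more UMIs the *Fgf8*-positive share was 45.4% in control and 71.8% in *Yap1* cKO, with 5 or more 23.1% and 52.4%, after thinning 24.8% and 46.9%, and in Y-bearing *Yap1* cKO cells 84.4%. With 5 or more UMIs the *Nodal* and *Wnt3* ratios were 1.05 and 0.739. In the classes added after the data were seen, *Wnt3* was at 4.5 (3 to 5 UMIs), 0.591 (20 or more), 2.01 (below 100 CPM) and 0.729 (300 CPM or more), *Nodal* at 1.04 (20 or more UMIs) and *Yap1* at 0.0651 (300 CPM or more). *Yap1* was at 0.00855 after thinning. Why these values moved was not tested.

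The 108 genes higher in *Yap1* cKO became 174 in *Xist*-bearing cells, 227 at 50 UMIs, 35 at 200 UMIs and 25 at 2-fold. The 240 lower became 430 in Y-bearing cells, 426 at 50 UMIs, 101 at 200 UMIs and 34 at 2-fold. The 56 genes higher in *Fgf8*-positive cells became 36 after thinning, 30 in Y-bearing cells, 35 in *Xist*-bearing cells, 97 at 50 UMIs, 31 at 200 UMIs and 27 at 2-fold. The 26 lower became 46 with *Fgf8* at 5 or more UMIs, 16 with *T* and *Mixl1* at 0, 14 in *Xist*-bearing cells, 58 at 50 UMIs, 12 at 200 UMIs and 1 at 2-fold. Fewer cells or another minimum change the number of genes compared.

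Among 39 genes named by rule, 3 whose pooled 95% interval excluded 1 crossed to the other side of it: *Gm36975* after thinning (0.741), *Slc35d3* in Y-bearing cells (1.02) and *Tdgf1* in *Xist*-bearing cells (1.22). Genes whose interval included 1, such as *Ocln*, *Grrp1*, *Nxph1* and *Galntl6*, also had ratios on both sides of it. Apart from the 3 crossings named first, 16 genes left their pooled interval in Y-bearing cells, *Tdgf1* (0.481) and *Gm36975* (8.96) among them. The numbers were 14 after thinning, 11 with *Fgf8* at 5 or more UMIs and 8 in *Xist*-bearing cells. They were 4 with *Fgf8* at 2 or more, 1 with *T* and *Mixl1* at 0 and 1 with cells weighted equally. No gene left its pooled interval at 2000 or 6000 detected genes. The limit of 5% mitochondrial UMIs and the doublet calls kept the same 90 and 140 members, and another scaling moves all genes alike, so these say nothing of stability. No paired analysis was possible because each genotype had 1 library, and no replicate could be left out. Stage, embryo and genotype cannot be told apart, and genes with few UMIs have wide intervals.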
